A study of Homo sapiens with 12 samples.

Results

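The 6 genes RIPOR2, UBE2J2, WWP2, DRAM1, MUS81 and KLLN form a group named here less-known genes raised at 1% oxygen. They were chosen by their own measured levels. In earlier results from these same arrays, each was higher at 1% than at 21% oxygen on average over both lines. Under the line labels as deposited, only KLLN was higher at 1% oxygen in both lines. Their probes were found by gene symbol, which gave 11 probes for the 6 genes among 47230 on the array. A probe counts as detected on an array where its detection p-value against the negative controls is under 0.01, and 7 of the 11 probes, at least 1 for each gene, were detected on 3 or more arrays and kept. In all, 16288 probes were kept and 9621 genes tested. The arrays were Illumina HumanHT-12 v4 BeadChips, on which the fluorescence of a bead-bound probe reports the level of a transcript. RNA came from the diffuse large B-cell lymphoma (DLBCL) cell lines HLY (HLY-1) and SUDHL2 (SUDHL-2), both grown in RPMI-1640 medium with serum at 5% CO2 and with no other treatment named. The 4 groups, each of 3 arrays, were HLY in hypoxia (1% oxygen), HLY in normoxia (21% oxygen), SUDHL2 in hypoxia and SUDHL2 in normoxia. The length of hypoxia was not given for the arrays, each line stands for 1 cell line only, and nothing said whether the 3 arrays of a group came from separate cultures, so the errors below measure the spread between arrays, which may be technical.

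At low oxygen the hypoxia-inducible factors (HIF) are no longer marked for destruction and bind short DNA elements near genes of glycolysis, iron handling and vessel growth. The 6 genes lie outside that textbook set and serve different processes. UBE2J2 and WWP2 belong to the ubiquitin system as a conjugating enzyme and a ligase, DRAM1 and KLLN are known as genes that the p53 pathway can switch on, MUS81 cuts branched DNA, and RIPOR2 restrains the small GTPase RHOA.

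Since the letters ACGTG and GCGTG form the core of the HIF-binding element, the promoter windows of the 6 genes were searched for both on either strand. The windows ran from 250 bases before to 50 bases after an annotated start site and were taken from RefSeq (build GRCh38.p14), which listed 12 windows for the 6 genes. A match was found in 5 of the 12 windows and in 3 of the 6 genes (RIPOR2, WWP2 and DRAM1), while 48.4% of 35116 windows of this length held at least 1 of the 2 motifs, 21.4% held ACGTG and 36.5% held GCGTG. Sequences of 3 windows are shown in the direction of transcription, with the matched letters in capitals, because they hold the palindromic form, the single form and no match. The first WWP2 window (chr16:69762082-69762381, plus strand) had ACGTG on both strands, in 1 overlapping palindrome that began at position -19 from the start site. The DRAM1 window (chr12:101877330-101877629, plus strand) had GCGTG on the minus strand at position -194, and the UBE2J2 window (chr1:1273805-1274104, minus strand) had neither motif.
WWP2: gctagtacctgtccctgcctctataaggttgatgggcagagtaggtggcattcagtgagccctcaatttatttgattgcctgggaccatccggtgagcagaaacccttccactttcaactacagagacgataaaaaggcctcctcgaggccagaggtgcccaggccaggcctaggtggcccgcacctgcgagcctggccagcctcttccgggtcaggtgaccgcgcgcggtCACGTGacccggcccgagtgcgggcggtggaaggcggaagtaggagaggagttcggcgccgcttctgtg
DRAM1: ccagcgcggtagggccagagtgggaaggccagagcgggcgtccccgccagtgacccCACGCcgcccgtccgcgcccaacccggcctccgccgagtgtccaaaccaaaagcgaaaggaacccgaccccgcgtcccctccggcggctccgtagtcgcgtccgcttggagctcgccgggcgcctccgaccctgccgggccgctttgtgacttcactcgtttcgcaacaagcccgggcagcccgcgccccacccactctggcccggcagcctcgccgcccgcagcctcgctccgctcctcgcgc
UBE2J2: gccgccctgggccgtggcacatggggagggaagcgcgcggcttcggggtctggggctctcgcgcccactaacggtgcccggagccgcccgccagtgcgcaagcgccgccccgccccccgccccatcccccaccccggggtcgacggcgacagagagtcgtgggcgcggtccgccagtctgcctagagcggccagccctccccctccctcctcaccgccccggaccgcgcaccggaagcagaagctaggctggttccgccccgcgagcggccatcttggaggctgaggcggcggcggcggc
These windows held 61.3%, 74.3% and 77.3% G and C. Another of the 3 WWP2 windows had GCGTG at positions -103 and -41, and 2 of the 5 RIPOR2 windows had it at position -225 or -154, while no match was found in the MUS81 and KLLN windows. Presence of the letters describes the sequence and does not show binding.

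How the arrays group bears on every value that follows. With genes as the points, which are no independent replicates, HLY hypoxia arrays correlated with those of SUDHL2 normoxia at a median r of 0.984 but with HLY normoxia at 0.755. SUDHL2 hypoxia likewise resembled HLY normoxia (0.976) more than SUDHL2 normoxia (0.754). On 12 of 12 arrays the closest group outside an array's own was one labelled as the other line. The B-cell markers MS4A1, CD79A, CD79B, CD22 and BLK were detected on all arrays of HLY normoxia and SUDHL2 hypoxia and not on all arrays of HLY hypoxia and SUDHL2 normoxia, while CD74, POU2AF1 and IRF4 were detected throughout and PAX5 on all arrays of no group. The summed level of the B-cell markers ran from 12800 to 14200 in HLY normoxia, 10200 to 14100 in SUDHL2 hypoxia, 9190 to 10700 in HLY hypoxia and 10100 to 11200 in SUDHL2 normoxia. EPCAM, 1 of 5 epithelial markers listed, was detected on all arrays of HLY normoxia and SUDHL2 hypoxia alone. Its level was 1100 to 1240 and 814 to 1000 there, against 23.5 to 32.4 in HLY hypoxia and 23.9 to 40 in SUDHL2 normoxia. No other epithelial marker of the list was detected on all arrays of any group, nor was any listed marker of T cells, monocytes or fibroblasts. The median intensity of an array lay between 111 and 149, with 12322 to 14925 probes detected. The part of the marker differences in the results below was not tested. Whether the labels of 2 groups were exchanged was not tested either. Every value given by label or between the pairs below is read with the labels as deposited. For this reason each gene was compared both as the labels pair the groups and between the 2 pairs of most similar groups, HLY hypoxia with SUDHL2 normoxia and SUDHL2 hypoxia with HLY normoxia, named here the like pairs, and in the average of the 6 hypoxia against the 6 normoxia arrays.

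All levels are normalized log2 intensities of the brightest kept probe of the gene, and they are not comparable between probes. The spread of a group is its SD over 3 arrays, and a difference is given with its standard error (SE) or 95% confidence interval from a limma fit to all 9621 genes. In bulk RNA a lower level can come from fewer cells that carry a transcript or from less of it per cell, and the arrays cannot tell these apart. Because the rises at 1% oxygen chose the 6 genes, these rises are a description without a p-value.

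**Figure D1:**
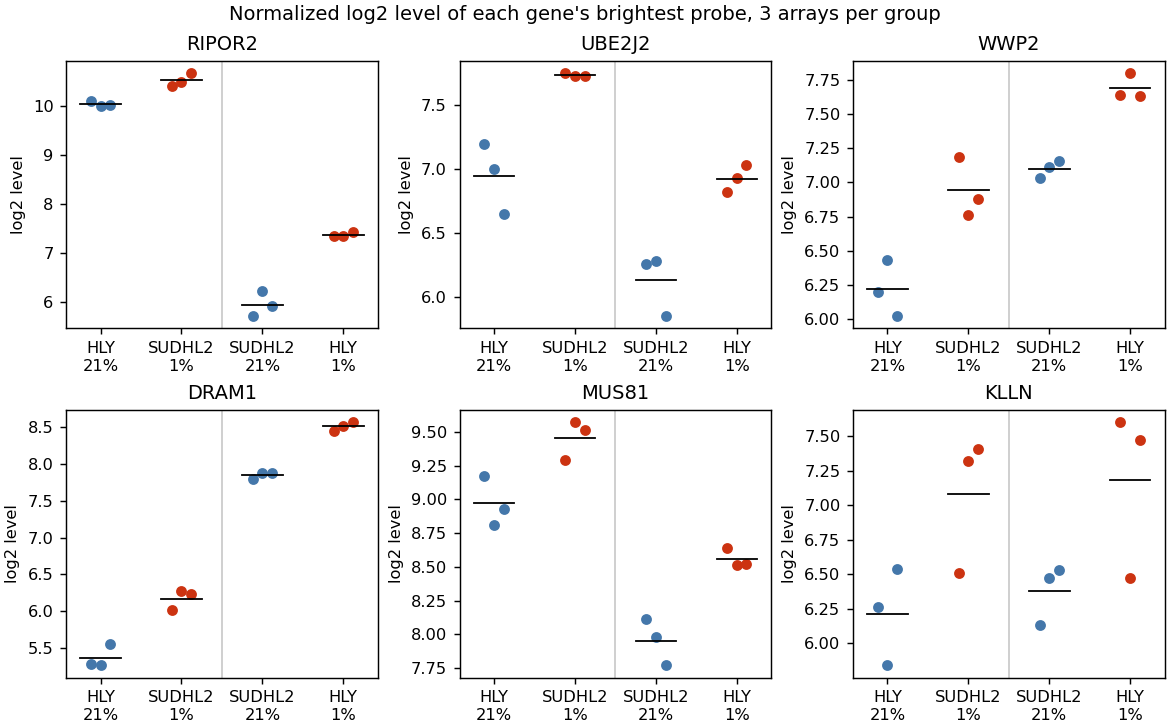
Normalized log2 level of the brightest probe of each gene on each array, with the 4 groups ordered so that the most similar groups stand side by side (vertical line between the like pairs), blue for 21% and red for 1% oxygen, and a bar at the mean of 3 arrays. Red points lie above the blue points of the same pair without overlap for RIPOR2, UBE2J2, WWP2, DRAM1 and MUS81, and with overlap for KLLN.

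UBE2J2 is a ubiquitin-conjugating enzyme anchored in the membrane of the endoplasmic reticulum (ER), where it helps to mark misfolded proteins for degradation. Its brightest probe was at 7.75, 7.73 and 7.73 on the SUDHL2 hypoxia arrays and at 7.2, 7 and 6.65 on the HLY normoxia arrays. In the other like pair it was at 6.82, 6.93 and 7.03 in HLY hypoxia and at 6.26, 6.28 and 5.85 in SUDHL2 normoxia. In each like pair the 3 hypoxia arrays lay above the 3 normoxia arrays, but HLY hypoxia as a group sat level with HLY normoxia. The difference was 0.80 (SE 0.157) between HLY hypoxia and SUDHL2 normoxia, a 1.74-fold higher level, and 0.79 between SUDHL2 hypoxia and HLY normoxia. As labelled, it was -0.02 in HLY (95% confidence interval -0.36 to 0.32) and 1.61 in SUDHL2 (3.05-fold).

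WWP2 is a ubiquitin ligase of the NEDD4 family, whose WW domains choose the proteins it marks. It read 7.64, 7.8 and 7.63 in HLY hypoxia and 7.03, 7.11 and 7.16 in SUDHL2 normoxia. In the second like pair it read 7.19, 6.76 and 6.88 in SUDHL2 hypoxia and 6.2, 6.43 and 6.02 in HLY normoxia. Both pairs were separated with no shared range, and SUDHL2 hypoxia overlapped with SUDHL2 normoxia. The like-pair differences were 0.59 (SE 0.144, 1.5-fold) and 0.73 (1.66-fold). Under the line labels WWP2 differed by 1.47 in HLY and by -0.15 in SUDHL2 (95% confidence interval -0.46 to 0.15), the reverse of the order seen for UBE2J2.

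DRAM1 encodes a lysosomal membrane protein that promotes autophagy, the digestion of a cell's own contents. Its levels were 8.45, 8.52 and 8.57 in HLY hypoxia against 7.8, 7.88 and 7.88 in SUDHL2 normoxia. They were 6.01, 6.27 and 6.23 in SUDHL2 hypoxia, where the probe was detected on 2 of 3 arrays, against 5.28, 5.26 and 5.55 in HLY normoxia, where it was detected on 0 of 3. The first like pair thus held bright values and the second values near background. The first pair differed by 0.66 (SE 0.123, 1.58-fold). For the second pair the measured difference was 0.80 (SE 0.123), but HLY normoxia gives only a bound. With each dim array at the lowest signal among its detected probes, the mean of SUDHL2 hypoxia was 1.21-fold higher. A bound of this kind compares means and carries no error. As labelled, HLY hypoxia was at least 6.14-fold higher than HLY normoxia, while the difference between SUDHL2 hypoxia and SUDHL2 normoxia was -1.69.

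KLLN encodes a small nuclear protein that binds DNA and can halt DNA synthesis. Its levels were 7.6, 6.47 and 7.47 in HLY hypoxia and 6.13, 6.47 and 6.53 in SUDHL2 normoxia. In SUDHL2 hypoxia they were 6.51, 7.32 and 7.41, and in HLY normoxia, where 2 of 3 arrays detected the probe, 6.26, 5.84 and 6.54. In each pair 2 hypoxia arrays stood clear of the normoxia arrays and 1 fell among them, so that both pairs overlapped. The low arrays were HLY hypoxia replicate 2 and SUDHL2 hypoxia replicate 1, which had the highest and the second highest median intensity of all arrays (149 and 139). On the deposited intensities, before any correction, KLLN read 280, 264 and 283 in HLY hypoxia against 182, 190 and 169 in SUDHL2 normoxia, and 222, 209 and 192 in SUDHL2 hypoxia against 167, 157 and 165 in HLY normoxia, with no overlap in either pair. The normalized differences were 0.80 (SE 0.298) and 0.87, the largest errors among the 6 genes. By label the differences were 0.97 in HLY and 0.71 in SUDHL2.

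MUS81 is the catalytic part of an endonuclease that cuts stalled replication forks and joined DNA molecules so that chromosomes can part. Its single probe was detected on all 12 arrays. Its level was 9.29, 9.57 and 9.51 in SUDHL2 hypoxia against 9.17, 8.81 and 8.93 in HLY normoxia, and 8.64, 8.51 and 8.52 in HLY hypoxia against 8.11, 7.98 and 7.77 in SUDHL2 normoxia. The pairs did not overlap, although 9.17 and 9.29 lay close together. The like-pair differences were 0.60 (SE 0.138, 1.52-fold) and 0.49 (1.4-fold), and by label the gene differed by -0.41 in HLY and by 1.51 in SUDHL2.

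RIPOR2 binds RHOA and holds back its activity, and it is known from the shape and movement of T cells and neutrophils. Its probe read 10.39, 10.49 and 10.66 in SUDHL2 hypoxia and 10.1, 10 and 10.02 in HLY normoxia. It read 7.34, 7.34 and 7.43 in HLY hypoxia and 5.71, 6.22 and 5.92 in SUDHL2 normoxia, where 2 of 3 arrays detected it. No other of the 6 genes spanned so wide a range, with deposited intensities from 145 to 2040. The difference was 1.42 (SE 0.139, 2.68-fold) between HLY hypoxia and SUDHL2 normoxia and 0.47 (1.39-fold) between SUDHL2 hypoxia and HLY normoxia. By label it was -2.67 in HLY and 4.56 in SUDHL2.

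**Figure D2:**
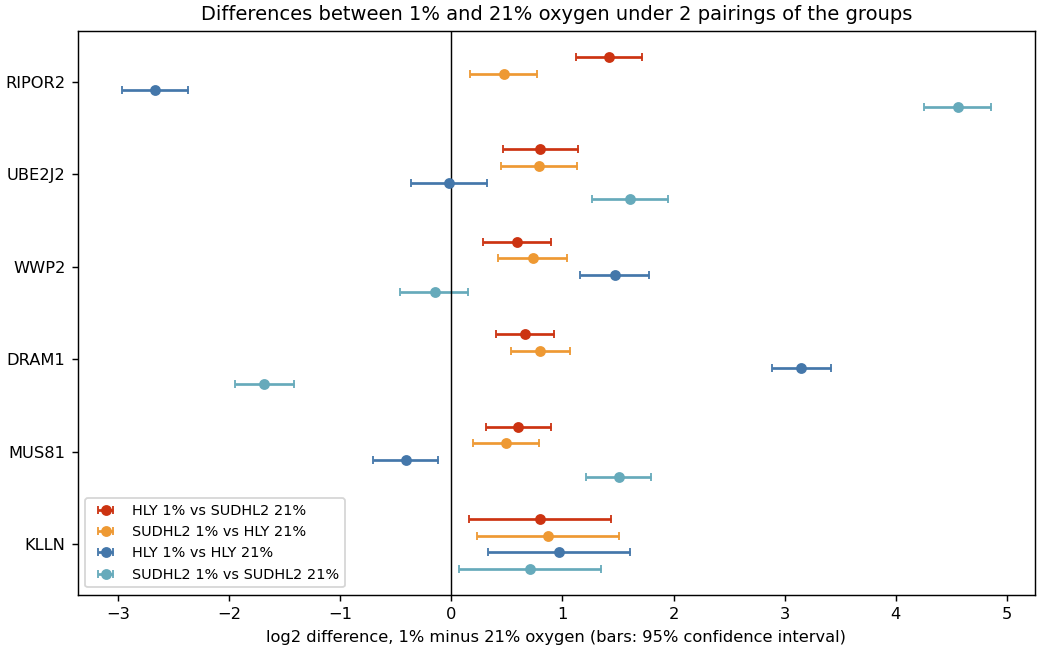
Log2 difference between 1% and 21% oxygen for each gene (points) with its 95% confidence interval (bars), between the like pairs (red, orange) and under the HLY and SUDHL2 labels (dark and light blue). The like-pair values run from 0.47 to 1.42, whereas the labelled values run from -2.67 to 4.56.

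Counted over the whole array, 1.17% of the 9621 genes were called higher in HLY hypoxia against SUDHL2 normoxia, 5.75% in SUDHL2 hypoxia against HLY normoxia and 3.9% in the average response, at a limma adjusted p under 0.05. Among the 6 genes, 5 were called in each like pair, all but KLLN, and 6 in the average, counts that the way the genes were chosen fixed and from which nothing is read. Genes called higher in both like pairs numbered 22 (0.229%), and those 5 were among them. Arrays without overlap in the direction of a rise were found for 10.7% of genes in the first pair and 18.8% in the second. By label, 33.1% of genes were called higher and 32.4% lower in HLY, and 33.3% higher and 33% lower in SUDHL2. Of the 6, WWP2, DRAM1 and KLLN were called higher in HLY and RIPOR2, UBE2J2, MUS81 and KLLN in SUDHL2, while RIPOR2 and MUS81 were called lower in HLY and DRAM1 in SUDHL2. The call of KLLN in SUDHL2 was lost when any 1 of 8 arrays was left out, with median centring and on the deposited scores. The average differences were 0.95 for RIPOR2, 0.84 for KLLN, 0.79 for UBE2J2, 0.73 for DRAM1, 0.66 for WWP2 and 0.55 for MUS81, ranks 16, 20, 22, 33, 48 and 123 from the highest of all genes, where the median of all genes was 0.02. The DRAM1 average holds HLY normoxia values not well above background, and with those arrays set to the lowest detected signal it was 0.47. With each array centred on its median in place of quantile normalization, the 6 averages stayed above 0, from 0.67 (MUS81) to 1.07 (RIPOR2), but only RIPOR2, DRAM1 and KLLN were called, against a median of all genes of 0.11. Under that scaling 1 of the 6, RIPOR2, was called in the first like pair and 0 in the second. On the deposited intensities, without normalization, the arrays of the second pair overlapped for UBE2J2, WWP2 and MUS81, while on the deposited scores the arrays of both pairs stood apart for all 6 genes. In the fit to those scores 3 of the 6 were called in the first pair (RIPOR2, DRAM1 and MUS81), 3 in the second (RIPOR2, UBE2J2 and MUS81) and 6 in the average. The call of KLLN in the average was lost when any 1 of 6 arrays was left out, and that of WWP2 in the first pair when any 1 of 10 was.

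**Figure D3:**
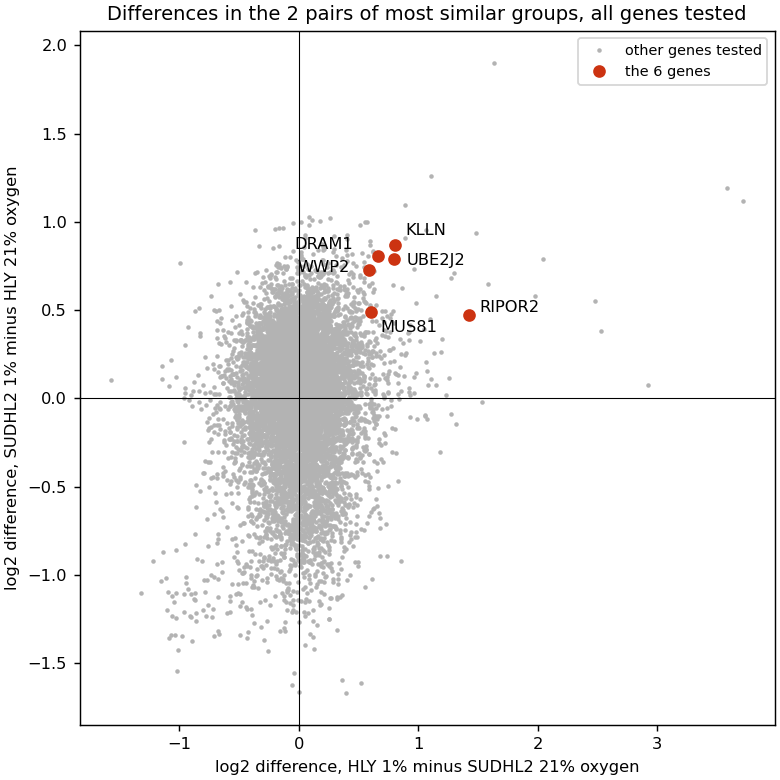
Log2 difference of every tested gene in HLY hypoxia against SUDHL2 normoxia (horizontal) and in SUDHL2 hypoxia against HLY normoxia (vertical), with the 6 genes in red and all others in grey. The 6 lie in the upper right, RIPOR2 with 1.42 and 0.47 and the others between 0.49 and 0.87 on both axes.

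The difference between the 2 rises was tested, but it is built from the rises that chose the genes, so the choice can bear on it. Its p-values are therefore a description. By label the same contrast sets both HLY groups against both SUDHL2 groups, so it cannot be told apart from a difference between the lines. Across all genes 5.74% were called in it in either direction. For RIPOR2 the rise in HLY hypoxia against SUDHL2 normoxia exceeded that in SUDHL2 hypoxia against HLY normoxia by 0.95 (SE 0.196, limma adjusted p = 0.0181). That call was lost without background correction (0.22, adjusted p = 0.303), with median centring (1.09, adjusted p = 0.286) and on the deposited scores (0.22, adjusted p = 0.229). In the other 5 genes no difference between the rises passed the test. The intervals were -0.47 to 0.49 for UBE2J2, -0.58 to 0.30 for WWP2, -0.52 to 0.23 for DRAM1, -0.31 to 0.53 for MUS81 and -0.97 to 0.84 for KLLN, the last being the widest. The DRAM1 interval again rests on HLY normoxia values not well above background, and at the lowest detected signal the difference between its rises was 0.39.

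The difference between the like pairs themselves did not enter the choice. This contrast set the mean of HLY hypoxia and SUDHL2 normoxia against the mean of SUDHL2 hypoxia and HLY normoxia, and 73.8% of all genes were called in it. Of the 6 genes 5 were called, a share near that of all genes. RIPOR2 was lower in the first pair, with a difference of -3.62 (limma adjusted p = 1.57e-13), as were MUS81 with -0.96 (adjusted p = 5.27e-07) and UBE2J2 with -0.81 (adjusted p = 1.13e-05). DRAM1 was higher there by a measured 2.42 (limma adjusted p = 3.72e-12), and by at least 2.15 with HLY normoxia at its bound, a value not tested. WWP2 was higher there by 0.81 (limma adjusted p = 4.63e-06). The KLLN difference was 0.13 (95% confidence interval -0.32 to 0.58, limma adjusted p = 0.59). By this contrast the genes fell on both sides. By the mean of 2 groups, RIPOR2, UBE2J2 and MUS81 were brighter in HLY normoxia with SUDHL2 hypoxia, and WWP2 and DRAM1 in the others. This did not hold group by group for UBE2J2, which averaged 6.95 in HLY normoxia and 6.93 in HLY hypoxia. Nor did it for WWP2, which averaged 6.95 in SUDHL2 hypoxia and 7.1 in SUDHL2 normoxia, and the arrays overlapped in both cases.

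Across the 12 arrays, levels of the genes on the same side ran together, with Pearson r of 0.938 between UBE2J2 and MUS81, 0.94 between RIPOR2 and MUS81, 0.833 between RIPOR2 and UBE2J2 and 0.882 between WWP2 and DRAM1. Between genes on opposite sides r ran from -0.843 (RIPOR2 and DRAM1) to -0.0967 (UBE2J2 and WWP2), and KLLN had no r above 0.422 with another of the 6. These values all share the same 12 arrays and their grouping. The tested gene with the profile most like that of each was, by r over 12 arrays, H2AC6 for RIPOR2 (0.995), SLC2A1 for UBE2J2 (0.953), MTFP1 for WWP2 (0.984), BHLHE40 for DRAM1 (0.99), SNORA70 for MUS81 (0.976) and PPID for KLLN (0.948). SLC2A1 is the glucose transporter GLUT1, and BHLHE40 and DDIT4, the second most similar to DRAM1 (r = 0.989), are a transcriptional repressor and an inhibitor of mTOR signalling. The average responses of the genes nearest to the 6, 3 for each, ran from 0.26 (TMEM115) to 1.77 (DDIT4), a rise that their likeness to genes chosen for rising fixes in part. Next nearest to UBE2J2 were the stress-induced transcription factor ATF3 (r = 0.945) and MUS81 itself (0.938), and those nearest to KLLN after PPID were TAF8 (0.916) and JMJD4 (0.893).

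Other probes existed for 3 of the 6 genes, since RIPOR2, DRAM1 and MUS81 had 1 probe each. For UBE2J2 the probe ILMN_1772712, which the array's table lists for another RefSeq transcript than the brightest probe ILMN_2387990, was kept and detected on 8 of 12 arrays. It read 5.92, 6.32 and 6.61 in SUDHL2 hypoxia against 5.62, 5.67 and 5.8 in HLY normoxia, and 5.92, 5.67 and 6.4 in HLY hypoxia against 6.47, 6.03 and 5.37 in SUDHL2 normoxia. The first of these pairs did not overlap and the second did, but the probe was detected on 0 of 3 arrays of HLY normoxia. The average response of this probe was 0.31 (SE 0.184, 95% confidence interval -0.08 to 0.71, limma adjusted p = 0.318 over all kept probes), so it did not pass the test that 2.94% of such second probes passed upward. With HLY normoxia at its bound, the mean of SUDHL2 hypoxia was 1.31-fold higher, a value that carries no error, and the average was 0.22. The measured difference was 0.59 in SUDHL2 hypoxia against HLY normoxia (adjusted p = 0.153 by limma) and 0.04 in HLY hypoxia against SUDHL2 normoxia (adjusted p = 0.963 by limma). The interval of the latter, -0.52 to 0.60, did not hold the 0.80 of the brightest probe. Between both UBE2J2 probes r was 0.385 over 12 arrays. The remaining UBE2J2 probe ILMN_1671362, the WWP2 probes ILMN_1668847 and ILMN_1759173 and the KLLN probe ILMN_1857439 were detected on 0 of 12 arrays, with deposited intensities of 93 to 160, and their levels were not compared between groups.

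**Figure D4:**
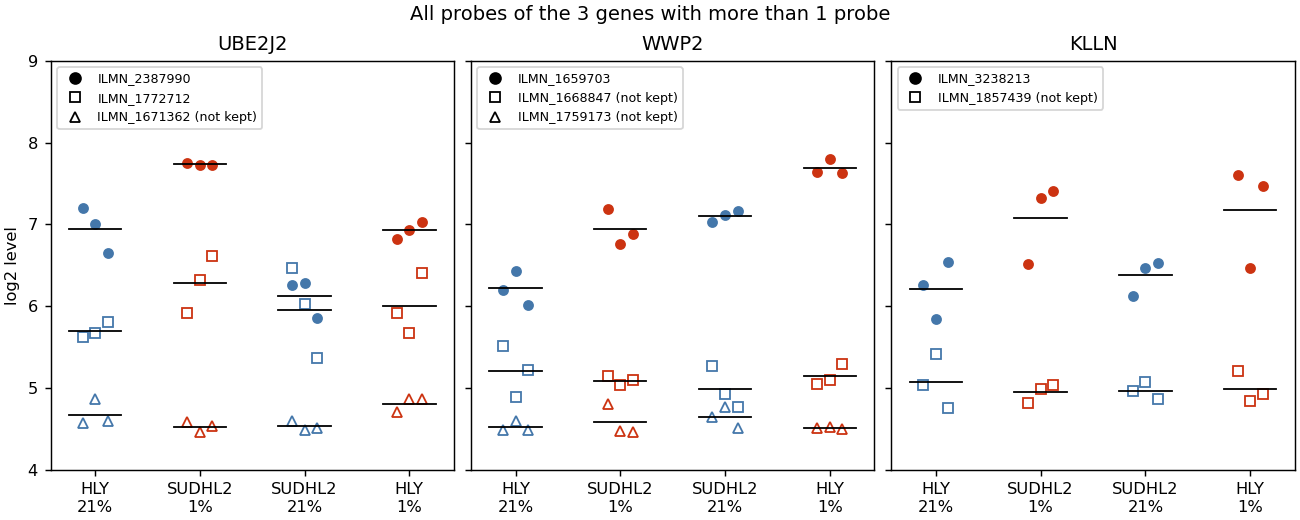
Normalized log2 level on each array of all probes of UBE2J2, WWP2 and KLLN, the genes with more than 1 probe, with a bar at each group's mean, filled circles for the brightest probe and open symbols for the others, blue for 21% and red for 1% oxygen. The second UBE2J2 probe averages 0.31 higher at 1% oxygen (0.22 with HLY normoxia at its bound), and probes marked as not kept lie near background.

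Relatives of the 6 genes were taken from lists by function, and their average responses were tested in the same fit, in which 3.9% of all genes were higher and 5.64% lower. Of the other NEDD4-family ligases, 5 of 8 could be tested, and 0 were higher and 0 lower, with a median of -0.11 against 0.02 for all genes. At an unadjusted p under 0.05, 2 were lower and 0 higher, WWP1 and NEDD4. The NEDD4 value rests in part on background, since 0 of 3 SUDHL2 hypoxia and 1 of 3 HLY normoxia arrays detected it. WWP1, the nearest relative of WWP2, stood at -0.22 (95% confidence interval -0.43 to -0.02), ITCH at 0.08 and NEDD4L at -0.11. In the comparison of SUDHL2 hypoxia with HLY normoxia alone, WWP1 was lower, with a difference of -0.52 (limma adjusted p = 0.0182).

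Of the genes of ER-associated degradation, the route in which UBE2J2 works, 19 of 23 could be tested, 1 was higher and 0 were lower (4 and 1 at an unadjusted p under 0.05), and the median was 0.11. The 1 that rose was AUP1, which recruits the conjugating enzyme UBE2G2 to the ER membrane, by 0.43 (SE 0.0978, limma adjusted p = 0.0155). UBE2J1, the paralog of UBE2J2, was at 0.02 (95% confidence interval -0.16 to 0.20), UBE2G2 at 0.12 and the ligase SYVN1 at 0.11. UBE2J1 differed strongly between the like pairs, in the direction opposite to UBE2J2, by 2.11 (limma adjusted p = 1.31e-11).

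Of 17 other genes of structure-specific nucleases and their partners, 13 were tested, 0 were higher and 2 were lower, both before and after adjustment, and the median was -0.03. MRE11, the nuclease that trims broken DNA ends, fell by 0.40 on the log2 scale (limma adjusted p = 0.0291), but its difference was -0.79 in the second like pair (limma adjusted p = 0.00389) and -0.02 in the first, and the 2 differed by 0.77 (limma adjusted p = 0.0498). Also lower was ERCC5, a nuclease of nucleotide excision repair, which fell by 0.30 (limma adjusted p = 0.0489). EME1, the partner subunit of MUS81, was at -0.03 (95% confidence interval -0.23 to 0.17) and the scaffold SLX4 at 0.09, while the resolvase GEN1 was not well above background in SUDHL2 normoxia. Of the RHOA regulators and RIPOR relatives, 8 of 10 were tested and 0 were higher and 0 lower (0 and 1 at an unadjusted p under 0.05), with a median of 0.01. There RHOA was at 0.14 and RIPOR1 at -0.33 (95% confidence interval -0.62 to -0.04, limma adjusted p = 0.15), and RIPOR1, like RIPOR2, was far lower in the first like pair, by -3.86 (limma adjusted p = 3.08e-12).

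Of the DRAM and TMEM150 proteins, a family of membrane proteins, 2 of 4 were tested, and TMEM150A was higher by 0.37 (SE 0.0962, limma adjusted p = 0.0291) while DRAM2 was at -0.23 (limma adjusted p = 0.38). Of 28 other genes that the p53 pathway can induce, 22 were tested, 1 was higher and 2 were lower, and the median was -0.03. TRIAP1, an inhibitor of apoptosis, rose by 0.52 (limma adjusted p = 0.0168). ZMAT3, an RNA-binding protein, fell by 1.07 on the log2 scale (limma adjusted p = 9.05e-05), and RRM2B, a subunit of ribonucleotide reductase, fell by 0.61 (limma adjusted p = 0.0122). The cell-cycle inhibitor CDKN1A was at -0.13 and the death gene BBC3 at 0.14, neither past the test. The CDKN1A average joined -0.54 in the first like pair (limma adjusted p = 0.0477) and 0.29 in the second (limma adjusted p = 0.156), which differed by -0.83 (limma adjusted p = 0.0252). The ligase MDM2 was not well above background on any array of HLY normoxia and SUDHL2 hypoxia. Between the like pairs 14 of the 22 were higher and 3 lower in HLY hypoxia and SUDHL2 normoxia. Counted either way, this share was near the 73.8% of all genes called in that contrast. Their median was 0.57 there against -0.02 for all genes, and this lean to the higher side was not tested. CDKN1A differed by 4.48 (limma adjusted p = 1.04e-14). With median centring the 7 relatives called in the average (AUP1, MRE11, ERCC5, TMEM150A, TRIAP1, ZMAT3 and RRM2B) kept their direction, and none was called, the lowest limma adjusted p being 0.0657 for ZMAT3. On the deposited scores MRE11, ERCC5, TMEM150A and RRM2B lost their calls (limma adjusted p from 0.079 to 0.197), and TMEM150A did so without background correction (limma adjusted p = 0.0706).

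**Figure D5:**
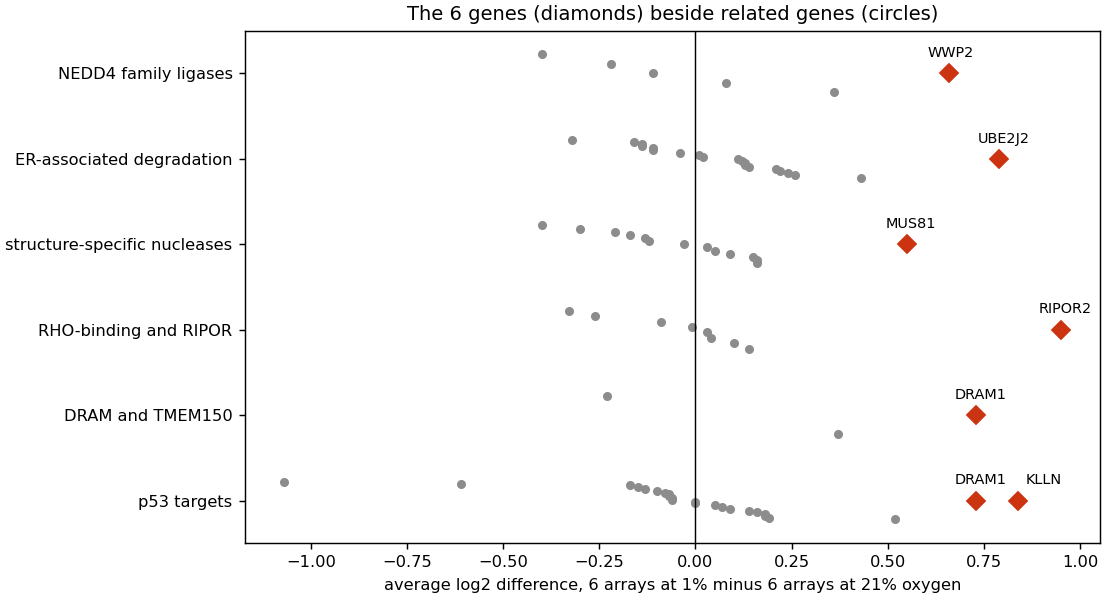
Average log2 difference between the 6 arrays at 1% and the 6 at 21% oxygen for the 6 chosen genes (red diamonds) and each tested relative (grey circles, offset vertically for legibility), by list. The diamonds, chosen for this value, lie between 0.55 and 0.95, and the relatives between -1.07 and 0.52.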

How the data were processed

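Samples were grouped by their labels into HLY and SUDHL2 cells in hypoxia or normoxia, 3 arrays each. The authors deposited probe intensity values as summarized by GenomeStudio 2011.1, per the labels, with no background subtraction or normalization, and beside each the authors deposited a detection p-value against the negative control probes of that array. A second table that the authors deposited holds a score for each probe and array, namely its log10 intensity standardized over the probes of that array, which recomputation matched within 0.0109. Comparisons made by the authors were not used.

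The function neqc (limma 3.58.1, R 4.3.3) applied normexp background correction, an offset of 16, quantile normalization and the log2 transform. A probe was kept if 3 arrays or more gave it a detection p below 0.01, and the brightest kept probe stood for its gene. Of all probes, 30113 carried 1 symbol, 8 several and 17109 none in the array's table, whose symbols were updated through RefSeq. Models of the group means used lmFit and eBayes, with 8 degrees of freedom from residuals and 5.71 from the prior, and p-values were adjusted over all genes by Benjamini and Hochberg with a threshold of 0.05. The number of arrays limits the precision. Alternatives changed the background correction, normalization, offset, detection filter, probe choice, replicate block, arrays and test. The genes, their lists and the comparisons were chosen with earlier results of these data known. The genes named were all probes of the 6, fixed relatives, the 3 genes most correlated with each, and list members called in the average. List members called in a like pair alone are not all named. Members of the lists above that are not named still entered the counts and medians where they could be tested. Probe sequences were not used here. Figures and promoter searches used Python 3.11.15, pandas 2.3.3 and matplotlib 3.10.9.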

Additional observations from a re-analysis of the deposited data

Results flagged for a closer look

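In 5 of the 6 genes the response to hypoxia differed between the line labels by the test of the difference itself (limma, response under the HLY label minus response under the SUDHL2 label, 3 arrays in each group). The difference was -7.23 for RIPOR2 (SE 0.196, adjusted p = 1.57e-13), 4.84 for DRAM1 (SE 0.174, adjusted p = 3.72e-12), -1.92 for MUS81 (SE 0.195, adjusted p = 5.27e-07), 1.63 for WWP2 (SE 0.203, adjusted p = 4.63e-06) and -1.63 for UBE2J2 (SE 0.222, adjusted p = 1.13e-05). These values are those of the contrast between the like pairs on another scale, and 73.8% of all genes passed the same test. They rest on the labels as deposited, and whether the labels of 2 groups were exchanged was not tested. The DRAM1 value rests on HLY normoxia arrays not well above background, and with those at the lowest detected signal it was 4.3. RIPOR2 was also the 1 gene of the 6 whose rises in the like pairs differed, by 0.95 (SE 0.196, limma adjusted p = 0.0181). That difference is built from the rises that chose the genes, and by label it sets both HLY groups against both SUDHL2 groups. Its call was lost without background correction, with median centring and on the deposited scores.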

How the results depend on the processing

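Of the 6 genes' values, all kept their direction of rise in the like pairs and in the average under every alternative run. Since these genes were chosen by their rises on the same arrays, this and their calls below describe the processing only. They are no test of the rises. Against 113 genes called higher in HLY hypoxia against SUDHL2 normoxia, 553 in SUDHL2 hypoxia against HLY normoxia, 375 in the average and 552 for the difference between the rises, median centring called 29, 1, 32 and 6, and 2126 in place of 3200 under the SUDHL2 label. Without background correction 173 were called in the first pair and 931 for the difference between the rises. The methods' t-test on the same values called 332 in the first pair and 197 in the average at its own threshold, and 7, 99 and 2 in the pairs and the average after Benjamini-Hochberg adjustment, with 0 of the 6 genes among them, whereas limma called 5, 5 and 6.

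Leaving out 1 array at a time gave 57 to 155 called genes in the first pair, 211 to 819 in the second, 183 to 505 in the average, 181 to 1347 for the difference between the rises, 6845 to 7138 between the like pairs, 2902 to 3306 higher under the HLY label and 2975 to 3234 under the SUDHL2 label. The first pair fell to 67, 60 and 57 without HLY hypoxia replicates 1, 2 and 3, the second to 277, 211 and 235 without HLY normoxia replicates 1, 2 and 3 and to 257 and 276 without SUDHL2 hypoxia replicates 2 and 3, and the average to 183 without HLY hypoxia replicate 3 and to 232, 222 and 234 without the HLY normoxia replicates. The count for the difference between the rises rose to 1347 without SUDHL2 hypoxia replicate 1 and lay between 181 and 309 without each of the others but SUDHL2 normoxia replicate 1 (478). Among the 6 genes, WWP2 kept its call in the first pair only without HLY normoxia replicate 2 or SUDHL2 hypoxia replicate 1. There MUS81 lost it without any HLY hypoxia array, HLY normoxia replicate 3 or SUDHL2 normoxia replicates 2 or 3, UBE2J2 without HLY hypoxia replicates 2 or 3 or SUDHL2 normoxia replicate 3, and DRAM1 without HLY hypoxia replicate 3. In the second pair RIPOR2 lost it without any HLY normoxia array or SUDHL2 hypoxia replicates 2 or 3, and MUS81 without the same arrays except HLY normoxia replicate 1. KLLN lost it in the average without HLY hypoxia replicates 1 or 3, HLY normoxia replicate 2, SUDHL2 hypoxia replicates 2 or 3 or SUDHL2 normoxia replicate 1, and gained it in the second pair without HLY hypoxia replicate 2 or SUDHL2 hypoxia replicate 1. The second UBE2J2 probe ran from 0.17 to 0.44 in the average, from -0.25 to 0.30 in the first pair and from 0.44 to 0.76 in the second, without a call in any.

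Samples with the same replicate number did not deviate together (median r = -0.00414, from -0.357 to 0.275), so the numbers name the arrays only. Between arrays of different numbers r ran from -0.427 to 0.556 (median 0.00983). The highest was between HLY hypoxia replicate 2 and SUDHL2 hypoxia replicate 1, so some arrays did deviate together. With the replicate number as a block, 91, 439 and 295 genes were called in the pairs and the average, and WWP2 and MUS81 lost their calls in the first pair. Requiring detection on all 12 arrays gave no value for RIPOR2, DRAM1, KLLN and the second UBE2J2 probe. A slide or scan block was not run, since no slide or scan was named. Near background, as for DRAM1 and the second UBE2J2 probe in HLY normoxia, signal limits what a fold can show.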
